A study of Homo sapiens with 12 samples.

Results

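The amino acid stress response and the charging of transfer RNA were followed through 36 genes, taken by their symbols from a table of 58233 genes. Each symbol matched 1 row. The genes fall into 6 sub-groups by role: 4 stress transcription factors (ATF3, ATF4, ATF5, DDIT3), 5 stress effectors and feedback genes (DDIT4, TRIB3, CHAC1, SESN2, PPP1R15A), 8 amino acid and one-carbon enzymes (ASNS, PSAT1, PHGDH, PSPH, SHMT2, MTHFD2, CTH, CBS), 4 amino acid transporters (SLC7A11, SLC3A2, SLC7A5, SLC7A1), 3 other targets of ATF4 (VLDLR, STC2, XPOT) and 12 cytosolic tRNA synthetases (AARS, GARS, WARS, SARS, MARS, YARS, EPRS, NARS, CARS, IARS, TARS, LARS). RNA sequencing had been done on HL‐60 cells, an established human acute myeloid leukaemia line labelled as wild type. There were 12 libraries in 4 groups of 3, all at 3 h: untreated cells, 100 nM all‐trans retinoic acid (ATRA, a ligand of the retinoic acid receptors), 500 nM palbociclib (which inhibits the cell cycle kinases CDK4 and CDK6), and ATRA with palbociclib, called the combination. The cells grew in RPMI medium with 10% fetal calf serum, and the labels name no vehicle for the untreated cells. HL‐60 is a single cultured line, and the labels do not say that the 3 libraries of a group came from separate cultures, so the p-values measure only the spread between these libraries.

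When an amino acid runs short, uncharged tRNA activates the kinase GCN2, which phosphorylates the translation factor eIF2. General protein synthesis then drops while ATF4 is translated more, and ATF4 with its C/EBP partners switches on genes for amino acid synthesis, amino acid uptake and tRNA charging. ATF4 is controlled to a large extent by translation, so its mRNA level need not follow its protein level, and several of its targets, DDIT4 among them, also answer to other signals.

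The values are RPKM, read counts scaled to gene length and to library size, which the authors rounded to whole numbers, so the smallest visible step is 1 RPKM and genes at a few RPKM often had identical values in replicates. The values do not hold the read total of a library and the study's methods state only an average depth over samples, so no counting interval is given. The RPKM of 1 library summed to between 358455 and 390247, and mitochondrial genes made up 21.6% to 26.6% of that sum. Genes known to answer to the drugs moved with them. DHRS3, a retinoid-induced reductase, stood at 0 to 1 RPKM without ATRA and at 40 to 50 RPKM with it, and CCNE1, which encodes cyclin E, went from 13 to 15 RPKM in untreated cells to 5 RPKM with palbociclib. CCNE1 (8 to 9 RPKM) and E2F1 were also called lower with ATRA alone. The retinoid targets CYP26A1, RARB and TGM2 were listed at 0 in every library. Of the myeloid identity genes, MPO stood at 1077 to 1579 RPKM and PRTN3 at 195 to 310 RPKM, but ELANE at only 0 to 1 RPKM. Of 12 markers of other cell types 11 were at 0 in every library. The exception was PECAM1, which myeloid cells also express, at 2 to 3 RPKM without ATRA and 4 to 6 RPKM with it.

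In untreated cells the levels of the 36 genes, given as mean RPKM, ran from 1 to 220, and they can be compared between genes because RPKM is per length. ATF4 was the highest at 220 ± 7.77 RPKM (SD, n = 3), above every other member in each untreated library. It was followed by the asparaginyl-tRNA synthetase gene NARS (129 ± 2.0), PSAT1 of serine synthesis (127 ± 11.3) and the glutamyl-prolyl-tRNA synthetase gene EPRS (111 ± 5.86). PSAT1 overlapped in its untreated libraries with both NARS and EPRS, and SHMT2, GARS and ATF5 overlapped between means of 80.0 and 83.3 RPKM, so no order is given among those that overlap. The synthetases lay between 28.3 RPKM for SARS and 129 RPKM for NARS, apart from CARS, the cysteinyl-tRNA synthetase gene, at 7.33 ± 0.577 RPKM. The stress effectors were all low, from 19.7 ± 0.577 RPKM for TRIB3 down to 4.0 ± 1.0 RPKM for DDIT4, and 4 members stayed under the minimum for testing throughout: ATF3 (0 to 1 RPKM over the 12 libraries), CTH (2 to 4), VLDLR (2 to 4) and STC2 (1 to 5).

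The letters around the starts of the genes were also read, in 3 to 10 promoters per sub-group. RefSeq promoter sequences (GRCh38.p14, 250 bases before to 50 after the start) were found for 31 of the 36 members, all except PSPH, SHMT2, SLC7A11, YARS and LARS. The core of the C/EBP-ATF response element, TGATGNAA, searched on both strands, occurred in 11 of these 31 promoters (35.5%) against 3.67% of all 27305 promoters of that length. The members were chosen as genes of the ATF4 pathway and of tRNA charging, so an excess can follow from that choice. It is no test of the set. Among the synthetases it was present in 6 of 10 promoters (AARS, MARS, NARS, CARS, IARS and TARS, but not GARS, WARS, SARS and EPRS), and elsewhere in those of ATF3, CHAC1, ASNS, SLC3A2 and SLC7A1. The E-box CACGTG, which no match of the first motif overlapped in the windows shown, occurred in 3 of 31 member promoters (9.68%: ATF4, SLC7A5 and IARS) against 7.43% of all promoters. A match describes letters in a window and says nothing about whether a factor binds there. The 30-base windows below, on the strand of the gene and 5′ to 3′, show the match in 5 synthetase genes, in CHAC1 and in ASNS, the asparagine synthetase gene. Against untreated cells neither CHAC1 nor ASNS was called, and nor were AARS, IARS and TARS. Capitals mark the 8 bases of the match, and a match on the opposite strand is seen as its reverse complement.
CARS (chr11:3057407-3057436, minus strand): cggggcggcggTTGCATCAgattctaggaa
MARS (chr12:57488053-57488082, plus strand): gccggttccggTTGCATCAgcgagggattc
AARS (chr16:70289675-70289704, minus strand): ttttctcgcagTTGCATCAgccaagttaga
IARS (chr9:92293692-92293721, minus strand): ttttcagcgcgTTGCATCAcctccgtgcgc
TARS (chr5:33440956-33440985, plus strand): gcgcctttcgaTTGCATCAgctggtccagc
CHAC1 (chr15:40953251-40953280, plus strand): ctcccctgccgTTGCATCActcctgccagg
ASNS (chr7:97872458-97872487, minus strand): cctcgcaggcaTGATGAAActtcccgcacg
The same 8 letters stood in all of these but ASNS, and they began 2 bases before the RefSeq start in CARS, 4 in MARS, 13 in IARS, 187 in AARS and 209 in CHAC1, and 3 bases after it in TARS. The windows are a selection, so this likeness depends in part on which were shown. Those left out read TGATGCAA in NARS, the same letters, but TGATGGAA in ATF3, TGATGTAA in SLC3A2 and TGATGAAA in SLC7A1.

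Treatment with either drug moved a minority of the 36 genes at 3 h. Against untreated cells the synthetases called (WARS, CARS and MARS) were higher and the transporters called (SLC7A5 and SLC7A1) lower. The effectors and feedback genes called went both ways. Of the 12 synthetases 5 had a positive and 7 a negative log2 fold change with ATRA, and the same held with the combination. With palbociclib 9 were positive and 3 negative. DDIT4 rose most, with ATRA and with the combination, while TRIB3 and the leucine transporter gene SLC7A5 fell. Of the 36 genes 32 reached 5 RPKM in at least 3 libraries and were tested with limma together with all 7820 genes that did. The fit was on log2(RPKM + 0.1), a gene was called at a Benjamini-Hochberg adjusted p-value under 0.05 over all 7820, and 12 members were called in at least 1 comparison. With ATRA against untreated cells 5 members were higher and 3 lower, where 8.71% of all genes tested were called higher and 11.6% lower. With palbociclib 4 members were higher and 0 lower, against 0.908% and 3.16% of all genes. With the combination 5 were higher and 4 lower, against 12.7% and 17.7%. The members' median log2 fold change was -0.06 for ATRA (-0.01 over all genes), 0.13 for palbociclib (0 over all genes) and -0.01 for the combination (-0.01 over all genes). With 1 library left out at a time it ran from -0.09 to -0.02 for ATRA, from 0.11 to 0.17 for palbociclib and from -0.06 to 0.03 for the combination. These comparisons share the 3 untreated libraries. The counts hung on single libraries in places. The 3 lower with ATRA became 5 without untreated replicate 3 and 6 without palbociclib replicate 1, whose values enter the common estimate of spread. Over all genes the 909 lower became 699 and 1011. The 4 higher with palbociclib became 1 without untreated replicate 1 or palbociclib replicate 2, and 2 without untreated replicate 2 or 3. Over all genes the 71 higher became 30 without untreated replicate 1 and 32 without palbociclib replicate 2. They became 42 and 45 without untreated replicates 2 and 3. In bulk RNA a change in the share of cells that express a gene and a change in RNA per cell cannot be told apart.

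**Figure D1:**
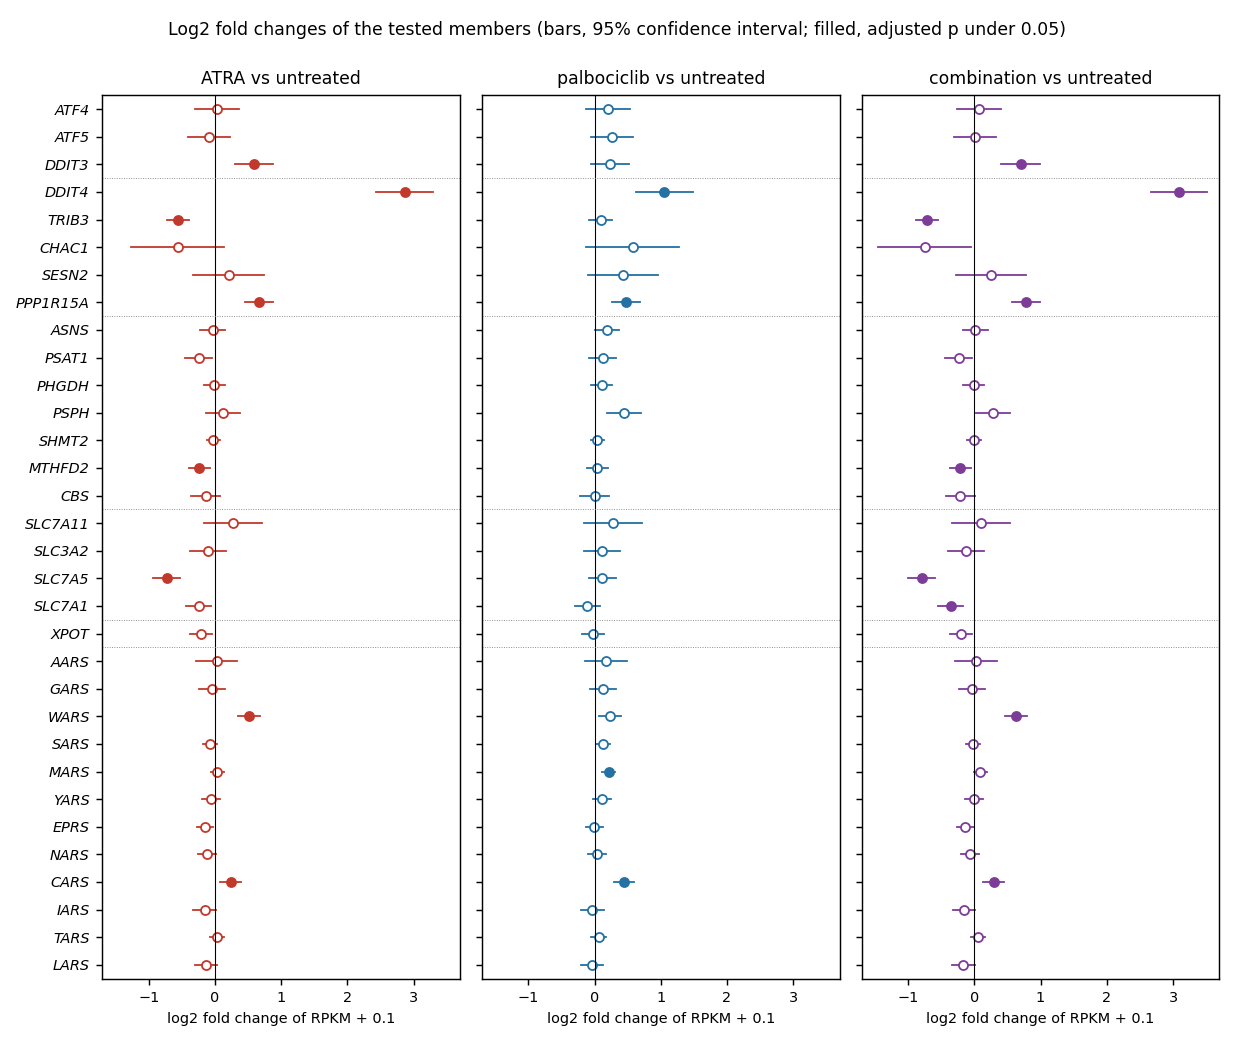
Log2 fold change of RPKM + 0.1 for the 32 tested members against untreated cells with ATRA, palbociclib and the combination, a panel each (x axis, log2 units), with 95% confidence intervals from the limma fit and genes grouped by sub-group. Filled points are called at an adjusted p-value under 0.05, and DDIT4 stands far to the right with ATRA (2.86) and the combination (3.09).

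Among the stress transcription factors only DDIT3 was called in any comparison. DDIT3 (CHOP, a pro-apoptotic C/EBP partner that ATF4 induces) lies at chr12:57516588-57521737 on the minus strand of GRCh38 in GENCODE v44. It read 10, 11 and 12 RPKM in the untreated libraries, 19, 16 and 15 with ATRA, 15, 12 and 12 with palbociclib, and 21, 17 and 16 with the combination. Every library with ATRA lay above every untreated library, and palbociclib alone overlapped with untreated cells. DDIT3 rose 1.51-fold with ATRA (log2 fold change 0.59, SE 0.13, limma adjusted p = 0.00902) and 1.62-fold with the combination (0.70, SE 0.13, limma adjusted p = 0.00241). Exons of DDIT3 and of MARS1, the gene listed here as MARS, share 355 bases on opposite strands, 27.2% of the exonic length of DDIT3. The library kit's strand setting is not given in the sources used here, so reads in that stretch may belong to either gene. Another protein-coding gene shares 8.03% of the exonic length of DDIT3 on the same strand, where no strand setting would tell reads apart. MARS itself was not called with ATRA (log2 fold change 0.03, limma adjusted p = 0.634).

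ATF4, the factor at the centre of the pathway, was not called in any comparison of the fit without replicate numbers. Its untreated libraries read 226, 222 and 211 RPKM, and its treated libraries differed more by replicate number than by drug. Those numbered 1 read 269 with ATRA, 301 with palbociclib and 280 with the combination, and the other 6 read 199 to 239. Within each replicate number the order was palbociclib, combination, ATRA from high to low. With the replicate number in a fit of the 9 treated libraries ATF4 was lower with the combination than with palbociclib alone (log2 fold change -0.14, limma adjusted p = 0.00186). That setting was added after the data had been seen. It called 24 of the 32 tested members and 20.3% of all genes lower in this comparison, so the call is not particular to ATF4. The paralogue ATF5 (66 to 107 RPKM over all libraries) was not called either, and ATF3, an early stress-induced factor, never exceeded 1 RPKM. ATF5 shares 19.5% of its exonic length with NUP62 on the opposite strand.

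The stress effectors and feedback genes held the largest rise and were the only sub-group with calls in both directions against untreated cells. DDIT4 (REDD1, an inhibitor of mTORC1; chr10:72273919-72276036, plus strand, a single exon) read 4, 5 and 3 RPKM in untreated cells, 30, 33 and 25 with ATRA, 8, 10 and 7 with palbociclib, and 35, 39 and 29 with the combination. The 4 groups were ordered untreated, palbociclib, then ATRA and the combination, which overlapped. With ATRA it rose 7.28-fold (log2 fold change 2.86, SE 0.19, limma adjusted p = 3.84e-06) and with the combination 8.51-fold (3.09, SE 0.19, limma adjusted p = 1.82e-06). It passed the minimum for testing through its treated libraries only, since in untreated cells it was at or below 5 RPKM. With palbociclib it rose 2.08-fold (log2 fold change 1.05, SE 0.19, limma adjusted p = 0.0122), a call that was lost without untreated replicate 1 (limma adjusted p = 0.0524) or palbociclib replicate 2 (0.0529), or with the compared groups fitted alone (0.099).

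PPP1R15A (GADD34, which directs the phosphatase that reverses eIF2 phosphorylation; chr19:48872212-48876059, plus strand) read 5 RPKM in all 3 untreated libraries and 8 RPKM in all 3 ATRA libraries. With palbociclib it read 7, 8 and 6 RPKM, and with the combination 9, 9 and 8. All treated libraries lay above all untreated ones. It rose 1.59-fold with ATRA (log2 fold change 0.67, SE 0.10, limma adjusted p = 0.000673), 1.72-fold with the combination (0.78, SE 0.10, limma adjusted p = 0.000155) and 1.38-fold with palbociclib (0.47, SE 0.10, limma adjusted p = 0.0228). The identical replicates come from rounding, so the error is borrowed from the other groups and genes. The palbociclib call was lost without any 1 untreated replicate (limma adjusted p = 0.0715, 0.0689 and 0.0675 without replicates 1, 2 and 3) and without palbociclib replicate 1 (0.0664) or 2 (0.0555).

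TRIB3, a pseudokinase that ATF4 and CHOP induce and that restrains them in turn (chr20:362835-397559, plus strand), moved opposite to DDIT3 and DDIT4. It read 20, 20 and 19 RPKM in untreated cells, 13, 13 and 14 with ATRA, 23, 20 and 20 with palbociclib, and 12, 11 and 13 with the combination. No library with ATRA reached the level of any library without it. TRIB3 fell to 0.679 of the untreated level with ATRA (log2 fold change -0.56, SE 0.08, limma adjusted p = 0.000535) and to 0.611 with the combination (-0.71, SE 0.08, limma adjusted p = 6.93e-05). With palbociclib the log2 fold change was 0.09 (limma adjusted p = 0.616).

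CHAC1, which degrades glutathione (chr15:40952962-40956512, plus strand), read 4, 5 and 4 RPKM in untreated cells, 4, 3 and 2 with ATRA, 9, 6 and 5 with palbociclib, and 4, 2 and 2 with the combination. The palbociclib libraries were the highest and those with ATRA the lowest, and each treatment overlapped with untreated cells. Against untreated cells no comparison of CHAC1 was called (log2 fold change -0.56 with ATRA, 0.57 with palbociclib and -0.75 with the combination, limma adjusted p = 0.253, 0.399 and 0.102). SESN2, a leucine sensor that restrains mTORC1, ranged from 5 to 11 RPKM and was not called.

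**Figure D2:**
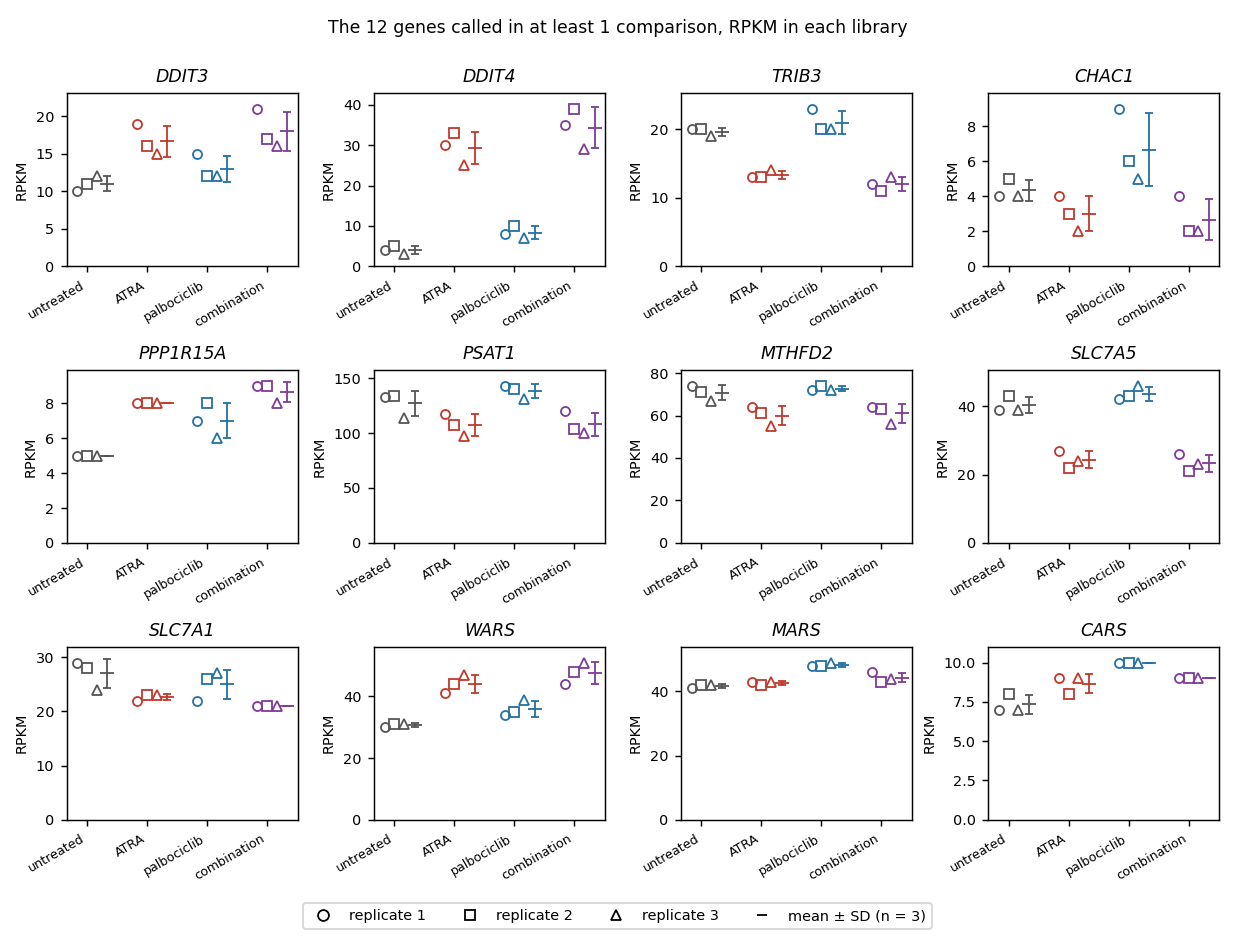
RPKM (y axis, starting at 0, a scale of its own in each panel) in each of the 12 libraries for the 12 members called in at least 1 comparison, with a point per library by group and replicate number and the group mean ± SD (n = 3) beside them. DDIT4 rises from 3 to 5 RPKM in untreated cells to 25 to 39 RPKM in libraries with ATRA, TRIB3 and SLC7A5 drop in the same libraries, and CARS and MARS are highest with palbociclib.

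Of the 7 enzymes tested, MTHFD2 was the only one called against untreated cells, and the fold changes of the enzymes were small. MTHFD2, the mitochondrial folate dehydrogenase and cyclohydrolase (chr2:74186172-74217565, plus strand), read 74, 71 and 67 RPKM in untreated cells, 64, 61 and 55 with ATRA, 72, 74 and 72 with palbociclib, and 64, 63 and 56 with the combination. It fell to 0.848 of the untreated level with ATRA (log2 fold change -0.24, SE 0.07, limma adjusted p = 0.0378) and to 0.863 with the combination (-0.21, SE 0.07, limma adjusted p = 0.0433). Both calls sit near the threshold. The ATRA call was lost without untreated replicate 1 (limma adjusted p = 0.13) or 2 (0.092), ATRA replicate 2 (0.0804) or 3 (0.135), or palbociclib replicate 2 (0.0521) or 3 (0.0531). That for the combination was lost without untreated replicate 1 (limma adjusted p = 0.141) or 2 (0.101), ATRA replicate 2 (0.0591), combination replicate 2 (0.0616) or 3 (0.146), or palbociclib replicate 1 (0.0514), 2 (0.0578) or 3 (0.0591). MTHFD2 shares 11.6% of its exonic length with SLC4A5 on the opposite strand.

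PSAT1, the aminotransferase of serine synthesis (chr9:78297125-78330093, plus strand), read 133, 134 and 114 RPKM in untreated cells, 117, 107 and 97 with ATRA, 143, 140 and 131 with palbociclib, and 120, 104 and 100 with the combination. Untreated replicate 3 lay within the range of the libraries with ATRA, and neither ATRA nor the combination was called against untreated cells (log2 fold change -0.25 and -0.23, limma adjusted p = 0.0883 and 0.085). The other serine and glycine enzymes stayed in narrow ranges over all 12 libraries, PHGDH at 34 to 41 RPKM and SHMT2 at 81 to 88 RPKM. ASNS stood at 26 to 35 RPKM, with the reservation that it shares 49.3% of its exonic length with a long non-coding RNA gene on the same strand. PSPH (7 to 11 RPKM) and CBS (6 to 8 RPKM, uncertain because reads could be split with its near-identical copy CBSL) were not called against untreated cells.

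Of the transporters, SLC7A5 changed most. SLC7A5 (LAT1, which imports leucine and other large neutral amino acids; chr16:87830023-87869507, minus strand) read 39, 43 and 39 RPKM in untreated cells, 27, 22 and 24 with ATRA, 42, 43 and 46 with palbociclib, and 26, 21 and 23 with the combination. The 6 libraries with ATRA and the 6 without it did not overlap. It fell to 0.603 of the untreated level with ATRA (log2 fold change -0.73, SE 0.09, limma adjusted p = 0.000316) and to 0.578 with the combination (-0.79, SE 0.09, limma adjusted p = 0.000117). Its partner subunit gene SLC3A2 (4F2hc) ranged from 21 to 32 RPKM and was not called.

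SLC7A1, the arginine and lysine transporter CAT1 (chr13:29509414-29595688, minus strand), read 29, 28 and 24 RPKM in untreated cells, 22, 23 and 23 with ATRA, 22, 26 and 27 with palbociclib, and 21 RPKM in all 3 combination libraries. It fell to 0.781 of the untreated level with the combination (log2 fold change -0.36, SE 0.09, limma adjusted p = 0.0101). With ATRA alone its libraries also lay below all untreated ones, but the log2 fold change of -0.25 was not called (limma adjusted p = 0.0672). SLC7A11, the cystine transporter xCT, stayed at 4 to 6 RPKM. Of the other ATF4 targets, XPOT, the tRNA exporter, ranged from 43 to 56 RPKM without a call. STC2, a secreted glycoprotein, was below the minimum for testing. Its untreated libraries read 4, 3 and 3 RPKM and those with palbociclib 5, 5 and 4, while the libraries with ATRA alone and with the combination read 2, 1 and 1 each.

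Few of the 12 cytosolic synthetases were called. With ATRA 2 were higher (WARS, CARS) and 0 lower, where 8.71% and 11.6% of all genes were, and their median log2 fold change was -0.06. With palbociclib 2 were higher (MARS, CARS) and 0 lower, where 0.908% and 3.16% of all genes were, with a median of 0.12. With the combination 2 were higher (WARS, CARS) and 0 lower, where 12.7% and 17.7% of all genes were, with a median of -0.01. WARS, the tryptophanyl-tRNA synthetase gene, which is also induced by interferons (WARS1, chr14:100333790-100376805, minus strand), read 30, 31 and 31 RPKM in untreated cells, 41, 44 and 47 with ATRA, 34, 35 and 39 with palbociclib, and 44, 48 and 51 with the combination. Untreated, palbociclib and ATRA libraries followed each other without overlap, and the combination overlapped with ATRA. WARS rose 1.43-fold with ATRA (log2 fold change 0.52, SE 0.07, limma adjusted p = 0.000699) and 1.55-fold with the combination (0.63, SE 0.07, limma adjusted p = 0.00012). It was 1.17-fold the untreated level with palbociclib, which was not called (limma adjusted p = 0.125).

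CARS (CARS1, chr11:3000922-3057613, minus strand) read 7, 8 and 7 RPKM in untreated cells, 9, 8 and 9 with ATRA, 10 RPKM in each palbociclib library and 9 RPKM in each combination library. These are steps of 1 to 3 RPKM, so rounding weighs heavily on them. CARS rose 1.36-fold with palbociclib (log2 fold change 0.45, SE 0.07, limma adjusted p = 0.00607) and 1.23-fold with the combination (0.29, SE 0.07, limma adjusted p = 0.00945). The ATRA call (1.18-fold, log2 fold change 0.24, SE 0.07, limma adjusted p = 0.0354) came from libraries that overlapped with untreated cells. It was lost without untreated replicate 1 (limma adjusted p = 0.108) or 3 (0.104) or ATRA replicate 1 (0.0931) or 3 (0.118), and with each library scaled to an equal sum (0.131).

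MARS (MARS1, the methionyl-tRNA synthetase gene, chr12:57475445-57517569, plus strand) read 41, 42 and 42 RPKM in untreated cells, 43, 42 and 43 with ATRA, 48, 48 and 49 with palbociclib, and 46, 43 and 44 with the combination. It rose 1.16-fold with palbociclib (log2 fold change 0.21, SE 0.04, limma adjusted p = 0.0224), the highest of the 4 groups without overlap. That call was lost without untreated replicate 1 (limma adjusted p = 0.0641), 2 (0.0508) or 3 (0.0533), without palbociclib replicate 2 (0.0515) or 3 (0.0666), and with equal-sum scaling (0.142). The remaining 9 synthetases were not called against untreated cells, and their log2 fold changes with ATRA lay no lower than -0.16.

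**Figure D3:**
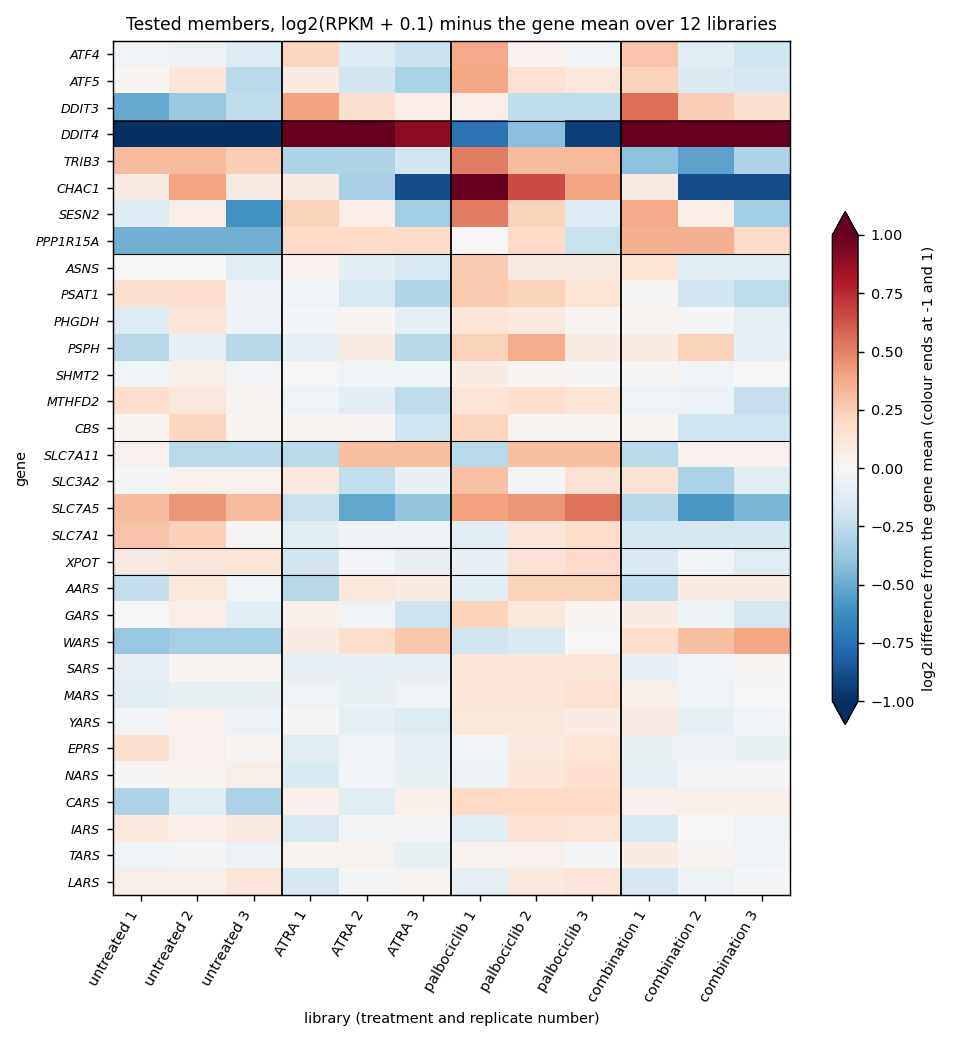
The 32 tested members as rows, in their sub-groups, and the 12 libraries as columns, by group, with colour for log2(RPKM + 0.1) minus the gene's mean over the 12 libraries (log2 units, the colour scale ending at -1 and 1). DDIT4 is the strongest row, most synthetase and enzyme rows stay close to 0, and ATF4 shows its highest values in the treated libraries with replicate number 1.

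Palbociclib alone gave small positive fold changes across most of the 32 tested members, few of which passed the test. Of the 32 tested members 26 had a positive log2 fold change against untreated cells, and their median of 0.13 stood beside 0 over all genes. With equal-sum scaling these became 23 members and a median of 0.08. In 9 members every palbociclib library lay above every untreated one and in 0 below, where 5.74% and 9.48% of all genes did so. By sub-group the medians were 0.23 for the transcription factors, 0.47 for the effectors and feedback genes, 0.10 for the enzymes, 0.12 for the transporters and 0.12 for the synthetases, and XPOT, the only other ATF4 target tested, stood at -0.02. The lists of further pathway genes described at the end were mixed. Their medians were 0 for the other cytosolic synthetases, -0.01 for the eIF2 genes, -0.03 for the further enzymes and -0.07 for the further transporters. The remaining lists leaned upward, with 0.08 for the partners and further targets of ATF4, 0.05 for the unfolded protein response and 0.03 for the mitochondrial synthetases. Of the 32 members only the 4 genes DDIT4, PPP1R15A, MARS and CARS were called.

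Most members stood lower with the combination than with palbociclib alone, though few passed the test. Between the combination and palbociclib alone 3 members were higher and 5 lower, where 5.86% of all genes tested were called higher and 6.64% lower. The 3 higher were DDIT4 (4.1-fold, log2 fold change 2.03, SE 0.19, limma adjusted p = 5.54e-05), WARS (1.32-fold, 0.40, SE 0.07, 0.00446) and DDIT3 (1.38-fold, 0.46, SE 0.13, 0.0419). CHAC1 passed the minimum for testing through its palbociclib libraries, the group it is compared with here. The 5 lower were CHAC1 (to 0.4 of the palbociclib level, log2 fold change -1.32, SE 0.32, limma adjusted p = 0.019), SLC7A5 (0.534, -0.91, SE 0.09, 9.49e-05), TRIB3 (0.573, -0.80, SE 0.08, 5.75e-05), PSAT1 (0.781, -0.36, SE 0.09, 0.0293) and MTHFD2 (0.838, -0.25, SE 0.07, 0.0394). Of the 32 members the groups of libraries lay apart upwards in 3 and downwards in 10, where 8.26% and 9.86% of all genes did. Of 32 members 28 had a negative log2 fold change, with a median of -0.15 against 0 over all genes. This comparison, that of palbociclib with untreated cells and the departure from additivity below share the 3 palbociclib libraries, so they are not independent. The median of the combination was -0.01 against untreated cells and 0.02 against ATRA.

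In these treated groups same-numbered libraries deviated together, which bears on the count. With the replicate number in the fit of all 12 libraries, 4 members were higher and 11 lower, against 10.1% and 13.4% of all genes. With the 9 treated libraries alone and the replicate number in the fit, a setting added after the data had been seen, 4 were higher (DDIT3, DDIT4, PPP1R15A and WARS) and 24 lower, against 15.7% and 20.3% of all genes. The 4 not called then were SLC7A11, YARS, NARS and TARS. Within replicate numbers 26 members were lower with the combination in each of the 3 pairs and 4 higher in each, where 23% and 18.7% of all genes were. The 5 lower became 3 without palbociclib replicate 2 or 3 and 2 without combination replicate 2 or 3. Over all genes the 519 lower became 393 and 319 without palbociclib replicates 2 and 3. They became 337 and 373 without combination replicates 2 and 3. DDIT3 lost its call without untreated replicate 1 (limma adjusted p = 0.0529), 2 (0.067) or 3 (0.0523), ATRA replicate 2 (0.0595), palbociclib replicate 2 (0.141) or 3 (0.154), or combination replicate 1 (0.118) or 2 (0.082). CHAC1 lost it without palbociclib replicate 1 (limma adjusted p = 0.072) or combination replicate 2 (0.0827) or 3 (0.0811). PSAT1 lost it without palbociclib replicate 1 (limma adjusted p = 0.0879), 2 (0.0884) or 3 (0.0547) or combination replicate 2 (0.107) or 3 (0.115). MTHFD2 lost it without untreated replicate 2 (limma adjusted p = 0.0591), ATRA replicate 2 (0.0578), palbociclib replicate 1 (0.0744), 2 (0.113) or 3 (0.0962), or combination replicate 2 (0.0694) or 3 (0.141).

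**Figure D4:**
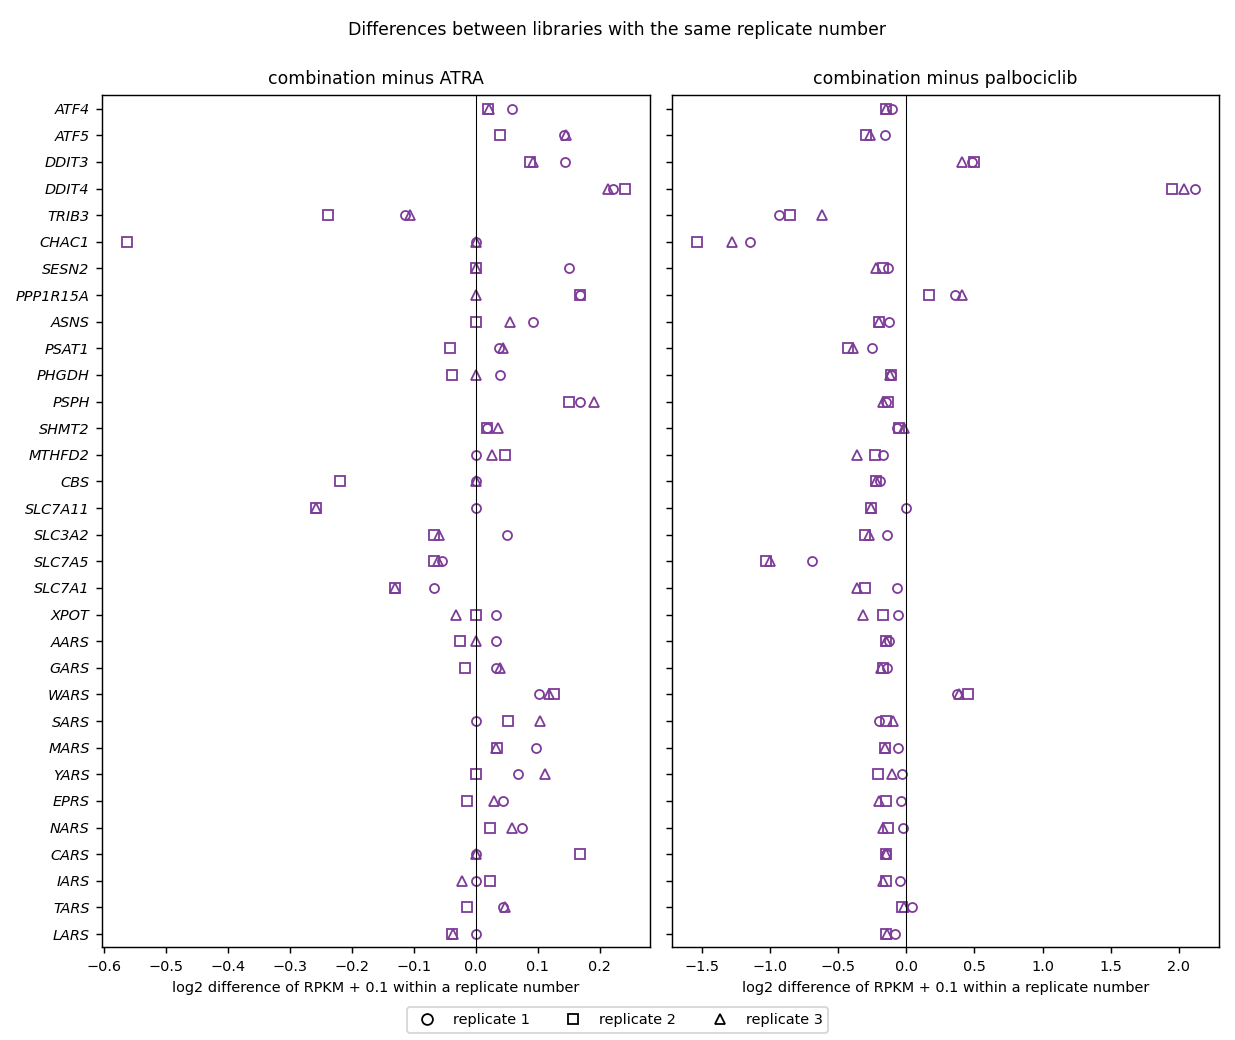
Differences in log2(RPKM + 0.1) between the combination and each single drug within each replicate number (x axis, log2 units, different scales in the panels), with a point per replicate number for each tested member. Against palbociclib 26 members lie below 0 in all 3 pairs and 4 lie above, while against ATRA most points lie near 0.

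No member was called when palbociclib was added to ATRA. Between the combination and ATRA alone limma called 0 members higher and 0 lower, where 0% of all genes were called higher and 0.115% lower, and 0 of the 32 members had an unadjusted p-value under 0.05. The log2 fold changes ran from -0.19 for CHAC1 to 0.23 for DDIT4, and their 95% confidence intervals reached from -0.89 to 0.65, so changes of that size are not shown to be absent. With the replicate number in the fit of 12 libraries 0 members were called in either direction, against 0.0128% and 0.639% of all genes. With the 9 treated libraries and the replicate number 1 member was higher and 0 lower, against 0.575% and 1.83%. That member was PSPH, the last enzyme of serine synthesis, with a log2 fold change of 0.17 (limma adjusted p = 0.0226). PSPH read 8, 9 and 7 RPKM with ATRA and 9, 10 and 8 RPKM with the combination. Each pair thus differed by the smallest visible step, and rounding makes the 3 differences alike. With equal-sum scaling added 0 members were called, against 0.102% and 1.48% of all genes. Within replicate numbers 9 members were higher with the combination in all 3 pairs and 3 lower (TRIB3, SLC7A5 and SLC7A1), where 11.3% and 11.6% of all genes were.

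Whether the effect of palbociclib depended on ATRA was tested as the departure from additivity on the log2 scale, that is, how far the change from ATRA to the combination exceeded that from untreated cells to palbociclib. Limma called 0 members in either direction, against 0% of all genes. The unadjusted p-value was under 0.05 for 5 members (CARS, DDIT4, PPP1R15A, MARS and TRIB3) and for 236 of the 7820 genes. The log2 departures of these 5 were all negative, -0.39 for CARS (95% confidence interval -0.61 to -0.17), -0.83 for DDIT4 (-1.43 to -0.23), -0.36 for PPP1R15A, -0.16 for MARS and -0.24 for TRIB3. CARS read 10 RPKM in each palbociclib library and 9 RPKM in each combination library. PPP1R15A read 5 RPKM in each untreated library and 8 RPKM in each ATRA library. Rounding hides the spread in these groups, so the error of both genes, and with it the interval and p-values, is borrowed from other groups and genes. Over the 32 members the median was -0.12 with 26 negative, beside 0 over all genes, and with equal-sum scaling -0.08 with 23 negative. Single libraries weighed on it, since the median was -0.06 without ATRA replicate 1, -0.08 without palbociclib replicate 1 or combination replicate 3 and -0.18 without combination replicate 1. No p-value is given for the median.

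The replicate numbers also left a mark on single members. In 5 of the 32 the 3 treated libraries with number 1 lay apart from the 6 with numbers 2 and 3. ATF4 was higher in them (269 to 301 RPKM against 199 to 239). SLC7A11 (4 against 5 to 6 RPKM), AARS (43 to 48 against 55 to 61), IARS (58 to 60 against 63 to 72) and LARS (34 to 36 against 37 to 42) were lower. Over all genes tested 16.6% were higher and 11.5% lower in the same way, so this mark is not particular to the members. What the numbers stand for is not given in the sources used here.

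The wider pathway was read from 102 further genes in 7 lists of related roles. Of 16 further amino acid and one-carbon enzymes tested, 0 rose and 8 fell with ATRA, where 8.71% and 11.6% of all genes did, and 1 rose and 10 fell with the combination, where 12.7% and 17.7% did. MAT2A, which makes S-adenosylmethionine, read 109, 90 and 118 RPKM in untreated cells and 60, 49 and 69 with ATRA (log2 fold change -0.84, limma adjusted p = 0.00409). Of 6 further amino acid transporters tested, 0 rose and 3 fell with ATRA and 0 rose and 4 fell with the combination. The glutamine transporter gene SLC38A1 went from 39, 36 and 34 RPKM to 24, 28 and 25 with ATRA (log2 fold change -0.50, limma adjusted p = 0.00606), and the neutral amino acid transporter gene SLC1A4 from 16, 17 and 17 to 12, 12 and 13 RPKM (-0.43, 0.00143).

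The counts that follow are for ATRA and stand beside 8.71% of all genes called higher and 11.6% lower. Of the partners and further targets of ATF4, 5 of 14 were tested. CEBPB, a C/EBP partner and myeloid differentiation factor, rose from 6, 7 and 8 RPKM to 36, 45 and 39 with ATRA (log2 fold change 2.50, limma adjusted p = 3.62e-07), the ER stress gene HERPUD1 rose from 27, 34 and 29 to 44, 56 and 48 RPKM (0.72, 0.0018), and CEBPG, a further C/EBP partner, fell from 33, 31 and 31 to 28, 25 and 25 RPKM (-0.28, 0.0201). Of 13 unfolded protein response genes tested, 1 rose and 0 fell with ATRA. This was XBP1, a transcription factor of that response, from 75, 85 and 83 RPKM to 136, 141 and 129 (log2 fold change 0.74, limma adjusted p = 2.14e-05). Of 12 genes for the eIF2 kinases, eIF2 and its phosphatase 0 rose and 1 fell (EIF2S1, the alpha subunit of eIF2, log2 fold change -0.28, limma adjusted p = 0.0424). Of 11 other cytosolic synthetase and complex genes 1 rose (QARS, 0.21, limma adjusted p = 0.00889) and 0 fell, and of 16 mitochondrial synthetases 1 rose (TARS2, 0.29, limma adjusted p = 0.0109) and 2 fell, MARS2 from 24, 22 and 25 RPKM to 13, 11 and 14 (-0.90, limma adjusted p = 0.000344) and NARS2 (-0.25, limma adjusted p = 0.0382). With palbociclib alone 1 gene of the 7 lists rose, TARS2 (log2 fold change 0.28, limma adjusted p = 0.0437), and 1 fell, where 0.908% and 3.16% of all genes did. The latter was MTHFD1 of cytosolic folate metabolism (-0.27, limma adjusted p = 0.0363), which is named after its values were seen. With each library scaled to an equal sum 11 of the 16 further enzymes and 4 of the 6 further transporters fell with ATRA and 0 rose. Under that scaling 1114 of all 7820 genes were called lower with ATRA and 522 higher, against 909 and 681 without it. QARS and TARS2 were then no longer called with ATRA.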

How the data were processed

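RNA of 12 HL‐60 libraries was sequenced after poly(A) selection with a TruSeq kit. HISAT2 with the hg38 build and htseq-count with default options were what the authors used to align and count. Versions, annotation release and strand setting are not given in the sources used here. The deposited score values are RPKM rounded to whole numbers, with no pooling of replicates. Members and lists were chosen with earlier results of these data known. In R 4.3.3, limma 3.58.1 (eBayes with a variance trend) was fitted to log2(RPKM + 0.1) with 1 mean per group over 12 libraries and 6 comparisons, for genes that reached 5 RPKM in 3 or more libraries. Fold changes are on that scale and understate low genes. The script was tested on simulated data. Values in all libraries are given for members called at an adjusted p under 0.05, and the other pathway genes named are at most 3 per list, by the largest log2 fold change among called genes. Same-numbered libraries correlated in their deviations from group means at 0.438 to 0.908 among the treated groups, and at 0.0453 to 0.367 between untreated and treated ones, where not every pair passed 0.1, so the numbers were taken to pair only the treated libraries. This pairing comes from the data. No 2 libraries were identical. Coordinates are from GENCODE v44, and promoter motifs were searched with Python 3.11.15. Alternatives were other minimums (1 and 10 RPKM, none), a pseudocount of 1, a threshold of 0.001, 2 scalings, no variance trend, the compared groups alone, the replicate block and leaving out libraries.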

Additional observations from a re-analysis of the deposited data

How the results depend on the processing

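No member's log2 fold change that was called turned its direction under any alternative. Of all 29 called differences (12 members over 4 comparisons), the pseudocount of 1 and the replicate block kept every call, and the median-ratio scaling lost 1, equal-sum scaling 2, no variance trend 2, the minimum of 1 RPKM 5, that of 10 RPKM 1 of the 25 it left, no minimum 6, and the compared groups alone 9 (MTHFD2 and CARS with ATRA, DDIT4 and PPP1R15A with palbociclib, MTHFD2 with the combination, and DDIT3, CHAC1, PSAT1 and MTHFD2 between the combination and palbociclib, adjusted p from 0.0695 to 0.138). At a threshold of 0.001 the members called were 3 higher and 2 lower with ATRA (2.77% and 1.94% of all genes), 0 higher with palbociclib (0.0128%), 3 higher and 2 lower with the combination (3.76% and 4.28%), and 1 higher and 2 lower between the combination and palbociclib (2.11% and 0.997%). A minimum of 10 RPKM left 3 higher with ATRA, where 483 of 5253 genes were. PPP1R15A was then not tested and CARS was not called (adjusted p = 0.0578). With the compared groups alone 2 were higher with palbociclib and 2 lower between the combination and palbociclib, where 52 and 294 of 7820 genes were. With the replicate block, which pairs libraries by number, 7 were lower with ATRA, 10 higher with palbociclib and 9 lower with the combination, where 20.7%, 5.5% and 25.5% of all genes were called, and 11 were lower between the combination and palbociclib. For the comparisons with untreated cells pairing by number was weaker and is not shown for every group. Deviations of same-numbered untreated and treated libraries correlated at 0.0453 to 0.367, and those of differently numbered ones at -0.242 to 0.0568. Settings added after seeing the data, with the block over the 9 treated libraries, gave 1 member higher between the combination and ATRA (1 with median-ratio and 0 with equal-sum scaling) and 24 lower between the combination and palbociclib (23 with either scaling). With median-ratio and equal-sum scaling 0.281% and 0.102% of all genes were higher in the first comparison. In the second 19% and 19.8% were lower.

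Leaving out 1 library, or all libraries with 1 replicate number (added after seeing the data), gave with ATRA 3 to 5 members higher and 2 to 6 lower, with palbociclib 1 to 4 higher, with the combination 4 to 5 higher and 2 to 7 lower, between the combination and ATRA 0 to 1 lower, between the combination and palbociclib 1 to 3 higher and 2 to 14 lower, and 0 to 1 lower for the departure from additivity. The values of 7 and 14 come with whole replicate numbers left out, and the 1 of the departure is SLC7A11 without replicate number 1, where rounded values are identical in replicates. Over all 7820 genes these settings gave 269 to 823 higher and 216 to 1155 lower with ATRA, and 2 to 205 higher with palbociclib. The combination gave 457 to 1073 higher and 557 to 1529 lower. Between the combination and ATRA 0 to 71 were lower. Between the combination and palbociclib 151 to 616 were higher and 92 to 855 lower, and for the departure 0 to 96 lower. The 14 and the 1 of the departure stood beside the 855 and the 96. Of all called differences 8 were lost without replicate number 1, 14 without number 2 and 12 without number 3. Lost without number 2 were, among others, DDIT3 (limma adjusted p = 0.156) and WARS (0.064) with ATRA and SLC7A1 (0.169) with the combination. CARS with palbociclib was lost without number 3 (limma adjusted p = 0.139). Equal-sum scaling moved the share of higher among all called genes from 42.8% to 31.9% with ATRA, from 22.3% to 8.41% with palbociclib and from 41.9% to 31.1% with the combination. The cause of these differences was not tested. Whole-number RPKM and 3 libraries a group limit what can be seen in low genes such as CARS, CHAC1 and PPP1R15A.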
